A study of Mus musculus with 2 samples.

Results

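The genes described here are the nuclear-encoded genes of the mitochondrial respiratory chain and ATP synthase. They were chosen by name from the count table: protein-coding genes whose symbol begins with Nduf, Uqcr or Atp5, or with Cox followed by a number from 4 to 8, together with Sdha, Sdhb, Sdhc, Sdhd and Cyc1. The rule found 94 of the 47069 genes in the table, spread over 19 chromosomes, and used no measured value. Of these, 90 had a mean level of 1 CPM (counts scaled by the library total) or more and entered the comparisons, and the 4 others are given with the tissue-restricted isoforms.

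Bulk RNA-seq of poly(A) RNA was performed on 2 samples of dissociated primary pituitary cells. Glands of randomly cycling female C57BL/6 mice aged 10 to 12 weeks were broken up with collagenase and pancreatine, and a sample was a pool of 500000 to 700000 cells from 5 glands. Cells of the first sample went straight into RNA-Best, a buffer made to stabilize RNA inside intact single cells, and those of the second into RNAlater, an established RNA stabilizer that served as the reference. The comparison asked whether RNA-Best gave the same transcript levels as the reference. Neither sample carried a transgene or received a drug. There was 1 library per stabilizer, so no difference below has a replicate check, no test was run and no p-value is given, and stabilizer, cell pool and library preparation cannot be told apart.

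The respiratory chain sits in the inner mitochondrial membrane. Complex I takes electrons from NADH and complex II takes them from succinate, and both pass them through coenzyme Q to complex III, which hands them by way of cytochrome c to complex IV, where oxygen is reduced. Complexes I, III and IV pump protons, and complex V, the ATP synthase, uses the proton gradient to make ATP. All complexes except complex II also hold subunits made from mitochondrial DNA, and only the subunits made from nuclear genes are members here. In hormone-secreting cells ATP drives the packaging and release of peptide hormones.

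The libraries held 53915047 counts (RNA-Best) and 44917492 counts (RNAlater) in genes. All 7 hormone genes used to check the tissue (Prl, Gh, Pomc, Cga, Lhb, Fshb and Tshb) were present and summed to 307051 CPM in RNA-Best, against 239085 CPM in RNAlater. Prl and Gh, the prolactin and growth hormone genes, together took 29.7% of the counts of RNA-Best and 23.2% of those of RNAlater. Ratios are given as log2 of RNA-Best over RNAlater, with 0.5 CPM added to each level, and their 95% counting intervals were computed without that addition and cover counting error only. Over the 16504 genes that reached a mean of 1 CPM the median ratio was -0.18, not 0. Scaling by other totals moved every gene up by nearly the same amount, which was 0.16 with TMM, 0.17 with DESeq2 size factors and 0.12 with the total without Prl and Gh, so ratios between -0.17 and 0 can change sign with the scaling.

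Transcripts of the respiratory chain took a larger share of the RNA-Best library. The 94 genes together held 0.748% of its counts (exact 95% interval 0.746 to 0.750) and 0.559% of the RNAlater counts (0.556 to 0.561). In bulk samples such as these, fewer cells of a type and less RNA per cell cannot be told apart. Of the 90 genes compared, 87 had a higher level in RNA-Best, where 33.0% of all genes did. Their median log2 ratio was 0.39, with quartiles of 0.23 and 0.55, which lay 0.57 above the median of all genes, and 90 of 90 lay above that median, which by definition parts all genes evenly. The counting interval lay wholly above 0 for 80 of the 90 (20.2% of all genes), held 0 for 9 and lay wholly below 0 for 1, Ndufs1. The ratio reached 1.5-fold higher for 20 of them (3.22% of all genes) and 2-fold higher for 2 (0.273%), and 0 were 1.5-fold lower, where 18.8% of all genes were. With each of the 3 other scalings 90 of 90 were higher in RNA-Best (48.6% of all genes with TMM, 49.6% with DESeq2 size factors and 44.5% without Prl and Gh), with medians of 0.52 to 0.57. The 1.5-fold limit was then passed by 39 with TMM (7.31% of all genes), 42 with DESeq2 size factors (7.72%) and 32 without Prl and Gh (6.39%).

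**Figure D1:**
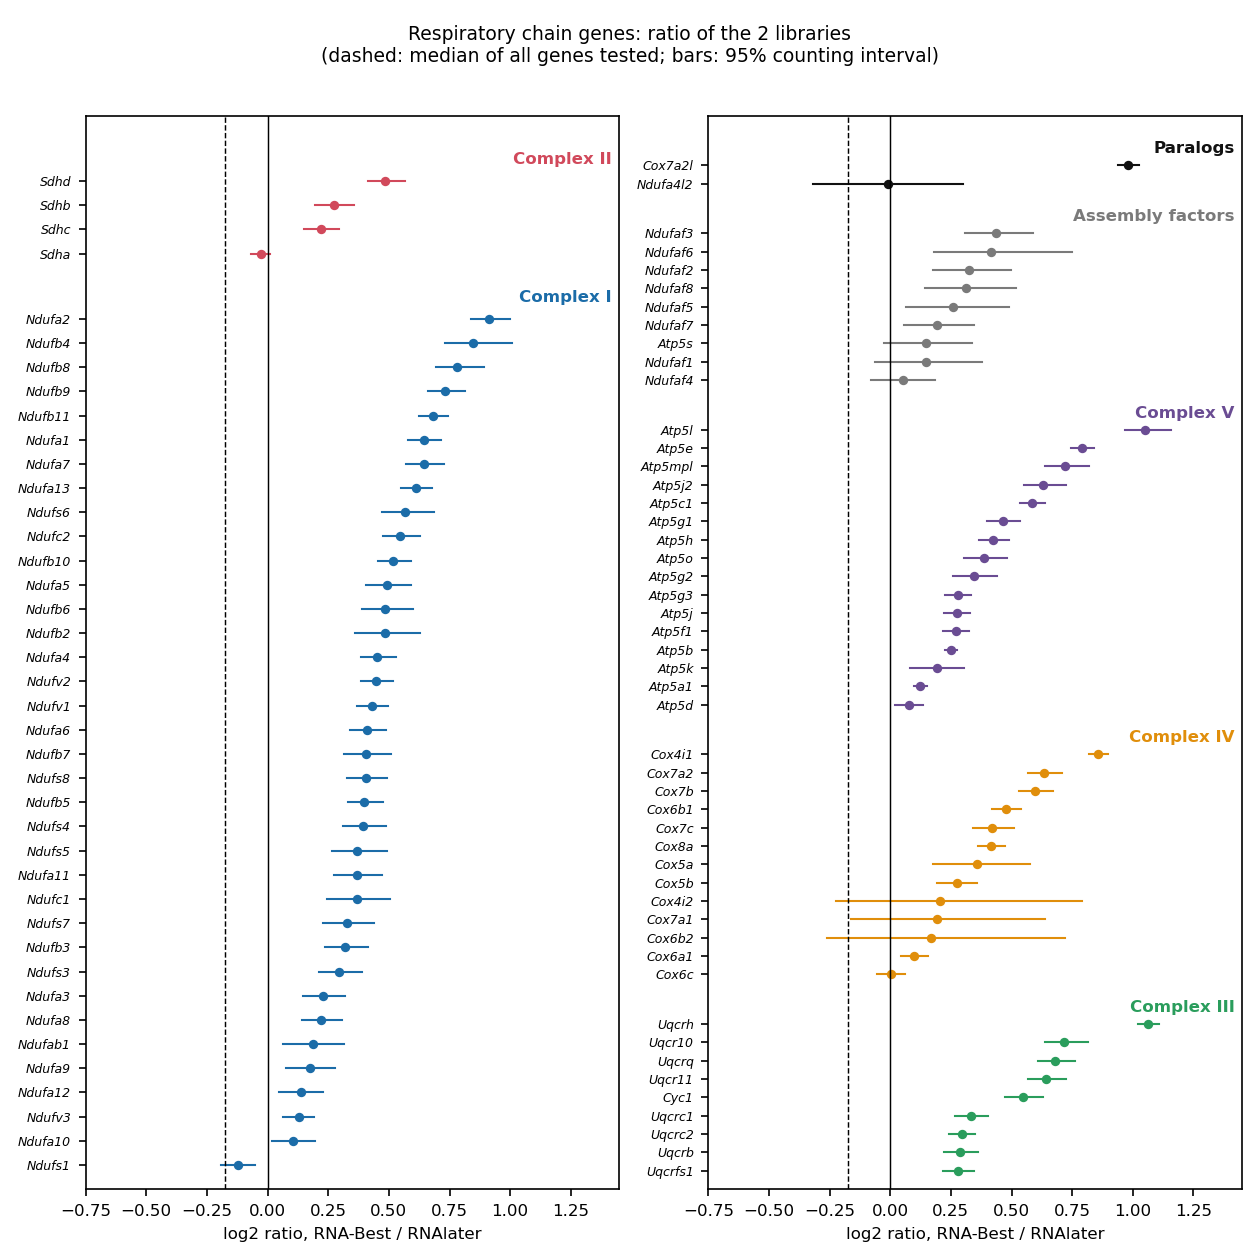
Log2 ratio of RNA-Best to RNAlater (x axis) for 89 of the 90 genes compared, grouped by complex, with 1 library per stabilizer. Points are ratios, bars are 95% counting intervals, the solid line is 0 and the dashed line the median of all genes (-0.18). Every point lies to the right of the dashed line, and Ndufs1, Sdha and Ndufa4l2 lie to the left of the solid line.

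The medians of the complexes ran from 0.25 to 0.55, and the ranges of their genes overlapped. Complex III had the highest median, 0.55 over 9 genes, from 0.28 for Uqcrfs1 to 1.06 for Uqcrh. Complex I had a median of 0.41 over 37 genes, of which 36 were higher in RNA-Best, from -0.12 for Ndufs1 to 0.91 for Ndufa2. Complex V stood at 0.37 over 16 genes and complex IV at 0.36 over 13, with 16 and 13 higher in RNA-Best. Complex II was lowest at 0.25 over 4 genes, 3 of them higher in RNA-Best. This order depends on the genes taken: with no filter on low levels complex IV was lowest at 0.21. With whole counts only, complex I was at 0.40 over 19 genes. Complex IV was then at 0.19 over 3 weakly expressed genes, Cox4i2, Cox6b2 and Cox7a1. Complex III was at 0.29 from 1 gene, Uqcrc2, so whole counts are too few to rank these 2 complexes. The summed CPM gave the same order at its ends, with log2 ratios of 0.60 for complex III, 0.47 for complex IV, 0.45 for complex I, 0.33 for complex V and 0.13 for complex II. Of all counts in these genes, complex II held 5.48% in RNA-Best and 6.71% in RNAlater, and complex III 12.6% and 11.1%.

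Complex I holds 7 nuclear-encoded core subunits, which carry its flavin and iron-sulfur clusters and reach the quinone site. Ndufv1, which binds NADH and FMN, stood at 98.6 CPM against 73.0 CPM (RNA-Best first, here and below), a log2 ratio of 0.43 (0.37 to 0.50). Ndufs1, the large iron-sulfur subunit (chr1:63143596-63176833, minus strand, GRCm38), had 65.0 and 70.7 CPM, a ratio of -0.12 (-0.19 to -0.05). It was the lowest ratio among the 90 genes, and the other scalings put it at 0.01 to 0.06. Exons of Ndufs1 overlap those of the lincRNA Ino80dos by 489 bases and of Eef1b2, a translation elongation factor gene, by 9 bases, both on the opposite strand. The core genes Ndufv2, Ndufs8, Ndufs7 and Ndufs3, which carry or neighbour the iron-sulfur chain, had ratios of 0.45, 0.40, 0.33 and 0.30.

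The 30 genes named as accessory subunits of complex I were all higher in RNA-Best and had a median of 0.43, against 0.40 for the 7 core genes. Ndufa2 had 77.0 CPM in RNA-Best against 40.7 CPM in RNAlater, a ratio of 0.91 (0.84 to 1.0). Ndufb4, with 25.6 and 14 CPM, reached 0.85, and Ndufb8, with 47.5 and 27.4 CPM, reached 0.78. These 3 small subunits headed the complex, and 8 of the 30 passed 1.5-fold (3.22% of all genes). At the other end, Ndufa10, with 44.7 and 41.5 CPM, had a ratio of 0.11 (0.02 to 0.20). Ndufa4, named for complex I although its protein is found with complex IV, had 73.5 and 53.6 CPM and a ratio of 0.45.

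Complex II is succinate dehydrogenase, the enzyme shared by the chain and the tricarboxylic acid cycle. Sdha, its flavoprotein (chr13:74322254-74350280, minus strand), had 215.6 CPM in RNA-Best against 219.9 CPM in RNAlater, a ratio of -0.03 (-0.07 to 0.01). Its counting interval held 0, and the other scalings gave 0.10 to 0.16. The iron-sulfur protein gene Sdhb had 55.1 and 45.5 CPM, a ratio of 0.27 (0.19 to 0.36). The membrane anchor genes Sdhc and Sdhd, which help to form the quinone site, had ratios of 0.22 (0.15 to 0.29) and 0.48 (0.41 to 0.57), with 70.1 against 60.1 CPM and 69.5 against 49.5 CPM. The intervals of Sdha and Sdhd did not overlap, while those of Sdhb and Sdhc did.

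Complex III carries electrons from coenzyme Q to cytochrome c. Its catalytic cytochrome c1 gene Cyc1 had 69.1 CPM in RNA-Best against 47.2 CPM in RNAlater, a ratio of 0.55 (0.47 to 0.63). The Rieske iron-sulfur protein gene Uqcrfs1, with 89.4 and 73.7 CPM, had a ratio of 0.28 (0.22 to 0.34). The core protein genes Uqcrc1 and Uqcrc2, whose products face the matrix, stood close to it at 0.33 and 0.29. The small subunits were further apart. Uqcrh, the hinge protein that supports cytochrome c1 (chr4:116066965-116075071, minus strand), had 289.8 and 138.6 CPM, the highest ratio of all members at 1.06 (1.02 to 1.11), a 2.09-fold difference. Uqcr10, Uqcrq and Uqcr11, also small subunits, had ratios of 0.72, 0.68 and 0.64, while Uqcrb was at 0.29.

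Complex IV is cytochrome c oxidase, whose catalytic subunits are made from mitochondrial DNA. Cox4i1, the common isoform of subunit 4 (chr8:120668222-120674207, plus strand), had 298.3 CPM in RNA-Best against 164.5 CPM in RNAlater, a ratio of 0.86 (0.82 to 0.90). It was the highest of the complex, followed by Cox7a2 at 0.63 and Cox7b at 0.60. Cox6c, with 99.9 and 99.8 CPM, had a ratio of 0.00 (-0.06 to 0.06), and Cox6a1, with 106.7 and 99.6 CPM, one of 0.10. An annotated transcript of Cox6c shares 250 exonic bases with Vps13b on the opposite strand, and Cox4i1 shares 154 with Emc8. Exonic overlap with another gene is common here and occurred for 29 of the 94 members. Cox5a was counted far less than its partners, at 520 counts in RNA-Best and 333.5 in RNAlater (9.64 and 7.42 CPM). Its exons share 269 bases with the noncoding gene Gm26631 on the opposite strand. Whether reads were lost there was not tested.

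Complex V makes ATP in its soluble F1 head. The genes of the catalytic beta subunit, Atp5b, and of the alpha subunit, Atp5a1, were the most abundant members. Atp5b had 583.9 CPM in RNA-Best against 490.3 CPM in RNAlater, a ratio of 0.25 (0.23 to 0.28), and Atp5a1 had 530.9 and 487.1 CPM, a ratio of 0.12 (0.10 to 0.15). The central stalk genes varied more, with 0.58 for Atp5c1 (gamma), 0.08 for Atp5d (delta) and 0.79 for Atp5e (epsilon). All 5 F1 genes were higher in RNA-Best, with a median of 0.25, and the 11 other genes of the complex had a median of 0.39. Among them Atp5l, which encodes subunit g of the membrane part (chr9:44912557-44920742, minus strand), had 60.5 and 29.0 CPM, a ratio of 1.05 (0.97 to 1.16).

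The genes that encode no structural subunit were also mostly higher in RNA-Best. The 9 factors named Ndufaf1 to Ndufaf8 and Atp5s, most of which help to assemble complex I, had a median ratio of 0.26. Of their intervals 6 lay above 0 (20.2% of all genes). Ndufaf3 was highest at 0.44, with 20.3 CPM in RNA-Best, against 14.9 CPM in RNAlater, and Ndufaf4 lowest at 0.05, with 19.5 and 18.8 CPM. Cox7a2l, a relative of Cox7a2, had 269.6 and 136.5 CPM, a ratio of 0.98 (0.94 to 1.03). Ndufa4l2, a relative of Ndufa4 known to be induced by low oxygen, had 3.56 and 3.58 CPM, a ratio of -0.01 (-0.32 to 0.30) that turned positive, at 0.11 to 0.15, with the other scalings.

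Several subunits have tissue-restricted isoforms, and in both libraries the common isoform held nearly all counts. Cox4i2, the alternative form of subunit 4, had 83 counts in RNA-Best against 57 in RNAlater, which was 0.513% and 0.766% of the counts of its pair. Cox7a1, the heart and muscle form, had 130 and 92 counts, or 2.66% (2.23 to 3.15) and 3.49% (2.82 to 4.26) of the Cox7a pair. Cox6b2, a form known from testis, had 87 and 62 counts, or 1.35% and 1.60% of the Cox6b pair. The intervals of these shares overlapped between libraries for Cox4i2, Cox7a1 and Cox6b2. Ndufa4l2 held 4.62% (4.0 to 5.30) of the counts of Ndufa4 and itself in RNA-Best and 6.27% (5.36 to 7.28) in RNAlater, and these intervals did not overlap.

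The 4 members under a mean of 1 CPM were all isoforms of this kind. Cox6a2, a muscle form, had 1 count in RNA-Best and 3 in RNAlater. Cox7b2 had 3 and 4, and Cox8b, another muscle form, 13 and 12. Cox8c, a testis form, had 0 counts in RNA-Best, which allows up to 0.0556 CPM, and 4 in RNAlater. Markers of striated muscle, which could carry such isoforms, were low: 3 of 12 reached a mean of 1 CPM, their sum was 9.24 CPM in RNA-Best, against 12.0 CPM in RNAlater, and 0 of 12 were at 0 in both. Of 5 brown adipocyte markers, only Cidea reached 1 CPM, and it lay far above that limit, with 24.0 CPM (RNA-Best) against 22.4 CPM (RNAlater). Elovl3 was at 0 in both libraries and Ucp1 stood at 0.575 and 0.557 CPM. The membrane ring of complex V uses 3 genes for the same mature subunit c. Atp5g3 held 49.5% of their counts in RNA-Best and 52.0% in RNAlater, Atp5g1 32.8% and 30.3%, and Atp5g2 17.6% and 17.7%. These shares depend on the near-identical copies described below: with copies added, Atp5g1 led with 38.3% in RNA-Best and 35.6% in RNAlater, Atp5g3 held 31.1% and 33.4%, and Atp5g2 30.7% and 31.0%.

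Levels of different genes were compared per kb of the longest annotated transcript. The median over the 90 genes was 55.1 CPM per kb in RNA-Best and 40.4 in RNAlater, and the rank correlation of these levels between the libraries was 0.990 across genes, which are not replicates. By complex, the median levels in RNA-Best and RNAlater were 54.8 and 39.1 CPM per kb for complex I, and 50.6 and 38.6 for complex II. Complex III stood at 71.7 and 58.5, complex IV at 78.5 and 57.0, and complex V at 82.9 and 59.0. The medians of the 5 complexes lay within a narrow range beside the spread inside each, which ran from 5.21 to 224.8 CPM per kb in complex I of the RNA-Best library. The 9 factors that are not subunits lay far lower, at 6.42 and 5.59 CPM per kb, and the highest of them, Ndufaf8, was at 13.9 in RNA-Best.

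The member of highest level per kb was Ndufa1 in complex I (224.8 in RNA-Best and 143.5 in RNAlater), Sdha in complex II (74.4 and 75.8), Uqcrh in complex III (361.8 and 173.0), Cox4i1 in complex IV (389.9 and 215.0) and Atp5b in complex V (304.7 and 255.9). The choice of transcript matters for some of these genes. The longest transcript of Atp5l has 6310 bases, while the transcript marked principal in the annotation has 544, and its level in RNA-Best was 9.59 CPM per kb on the first and 111.2 on the second. With principal transcripts, Atp5e led complex V at 467.6 and 269.9 CPM per kb, Uqcrh reached 529.8 and 253.4, and the medians of complexes IV and V in RNA-Best became 103.1 and 101.0.

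**Figure D2:**
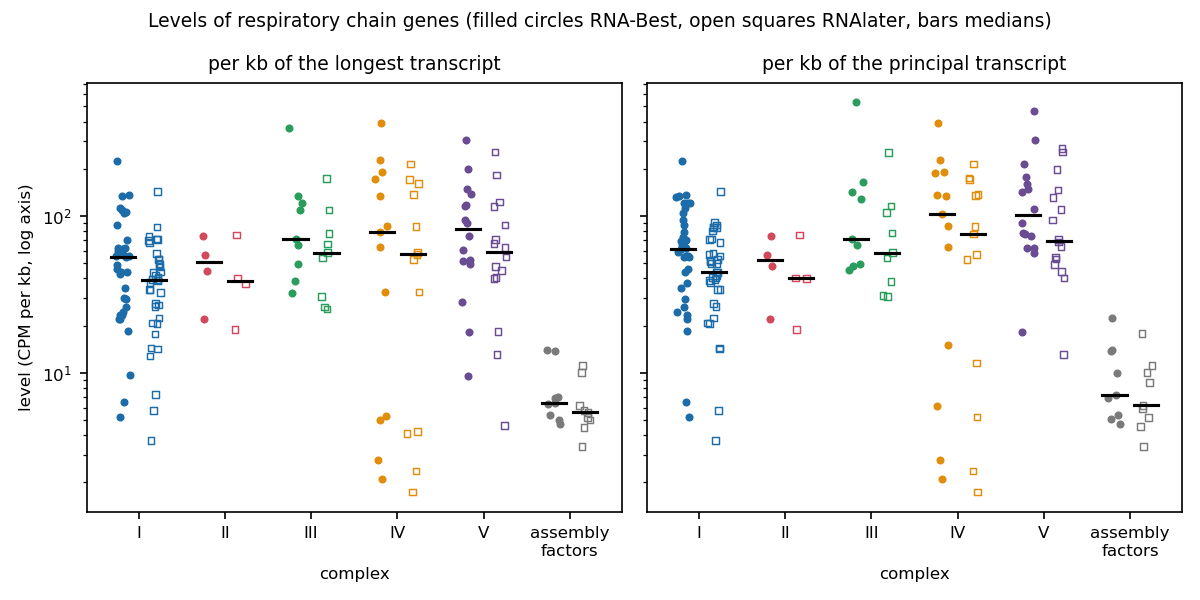
Level of each gene in CPM per kb (y axis, log scale) by complex, with the longest transcript on the left and the principal transcript on the right. Filled circles are RNA-Best, open squares RNAlater and bars medians; the 5 complexes share one range, the isoforms Cox4i2, Cox6b2 and Cox7a1 lie at its bottom in complex IV, and the assembly factors lie below most subunits.

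Many of these genes have near-identical copies elsewhere in the genome, mostly processed pseudogenes, which are reverse-transcribed mRNAs. A sequence search found 72 copies in the table, 68 of them pseudogenes, for 33 of the 94 genes, at an identity of at least 90% over at least 100 coding bases. The deposited counts of these genes were often fractions, as arise when a read that matches several places is divided among them. For 3 genes the copies held more RNA-Best counts than the gene: Atp5l with 3262 counts in the gene and 7577 in 13 copies, Cox7c with 3001 and 4425, and Atp5g2 with 2471 and 4368. The first 90 coding bases of Atp5l are shown beside 3 of its copies, Gm10221 (chr5:24581554-24581862, minus strand), Atp5l2-ps (chr11:97768060-97768371, plus strand) and Gm4853 (chrX:38396935-38397328, plus strand), because a read from an identical stretch has no unique place. They come from GENCODE M21 transcripts on GRCm38, and capitals mark bases that differ from Atp5l.
Atp5l: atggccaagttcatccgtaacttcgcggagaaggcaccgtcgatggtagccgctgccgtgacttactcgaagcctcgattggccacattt
Gm10221: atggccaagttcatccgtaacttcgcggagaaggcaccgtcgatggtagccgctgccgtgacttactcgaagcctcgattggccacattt
Atp5l2-ps: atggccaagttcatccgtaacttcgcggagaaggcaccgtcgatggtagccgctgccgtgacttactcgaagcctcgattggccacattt
Gm4853: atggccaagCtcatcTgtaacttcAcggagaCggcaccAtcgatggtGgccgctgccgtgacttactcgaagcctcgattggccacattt

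Gm10221 and Atp5l2-ps had 0 mismatches to Atp5l in this stretch and Gm4853 had 6. Gm10221 was listed with 2819 counts in RNA-Best and 1111 in RNAlater, and Gm4853 with 964.8 and 383.3. The ratios of gene and copies were close, 1.05 for Atp5l and 1.04 for its copies summed. Adding the counts of all copies to their genes changed no sign and moved no ratio by more than 0.09, the value for Ndufab1, whose product is the mitochondrial acyl carrier protein. Where the same reads are divided among a gene and its copies, their ratios are bound to be close. The small change is therefore no separate check of these ratios. With copies added, 21 of the 90 genes passed 1.5-fold toward RNA-Best and 2 passed 2-fold. Of all genes, for which copies were not added, 3.22% and 0.273% did. The 33 genes with copies in the table had a median ratio of 0.42 and the 57 without a copy there 0.33. Some of the 57, such as Ndufa1, have copies that the count table does not list. The 39 genes whose counts were whole numbers had a median of 0.28, and 36 of them were higher in RNA-Best, against 28.0% of all genes with whole counts. The ratio was at least 1.5-fold for 4 of these 39, against 1.46% of such genes.

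**Figure D3:**
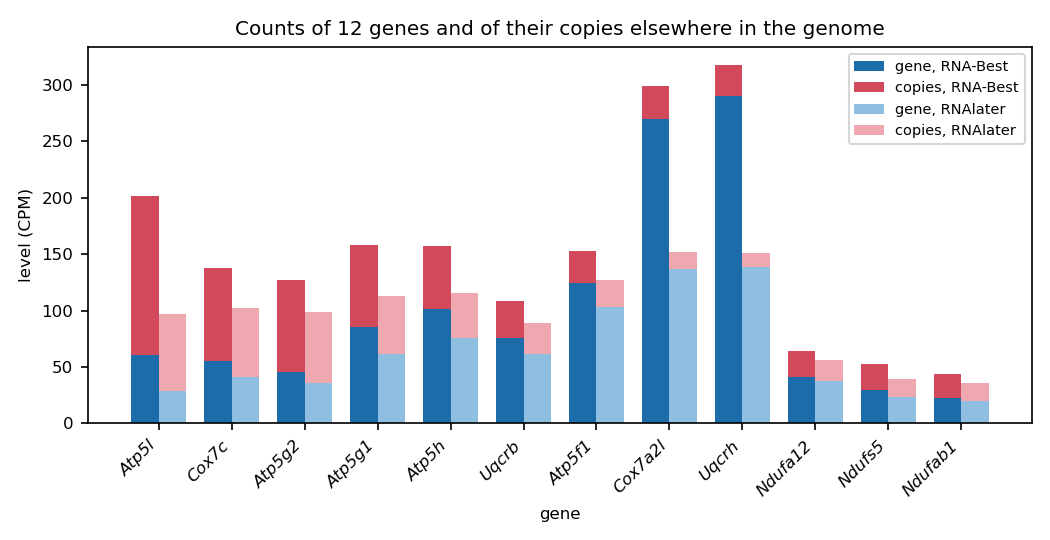
Level in CPM (y axis) of the 12 genes with the most counts in copies, with RNA-Best in dark and RNAlater in light shades. Blue is the gene and red its copies stacked on top; for Atp5l, Cox7c and Atp5g2 the red part is the larger, and the stacked bars of RNA-Best are higher than those of RNAlater for all 12.

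The ratio of the libraries went with transcript length over all genes, and respiratory chain transcripts are short. Across the 16443 genes with a length, the Spearman correlation of log2 ratio and longest transcript was -0.64, and across the 90 members it was -0.25. With the length of the principal transcript it was -0.64 across 13824 genes and -0.36 across the members. The median length was 1135 bases for the members and 3087 for all genes. Within classes of the longest annotated transcript, the median of the members still lay above that of all genes. Such classes place some members with a short principal transcript among long genes. Ndufb7 has 4435 bases in its longest and 623 in its principal transcript, and Cox6c 3038 and 738. Classes by principal transcript were not compared. Up to 1 kb, 39 of 40 members were higher in RNA-Best, against 77.1% of all genes of that length, with medians of 0.42 and 0.28, and 12 of the 40 were at least 1.5-fold higher, against 17.9%. From 1 to 2 kb, 30 of 30 were higher, against 57.8%, with medians of 0.41 and 0.07. From 2 to 3 kb, 9 of 11 were higher, against 36.5%, with medians of 0.19 and -0.09, and from 3 to 4 kb 5 of 5 were higher, against 20.9%.

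Set against the median of its own length class by longest transcript, a member lay 0.28 higher in the median, and 78 of 90 lay above their class. The 12 that did not were Atp5g3, Atp5j, Atp5k, Cox4i2, Cox5b, Cox6a1, Cox6b2, Cox7a1, Ndufa3, Ndufa4l2, Ndufa8 and Ndufs1. The excess over the length class was 0.42 for complex III, 0.33 for complex I, 0.31 for complex II, 0.20 for complex V and 0.14 for complex IV, so complex II was no longer the lowest. The part of length in the ratios of single genes was not tested.

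**Figure D4:**
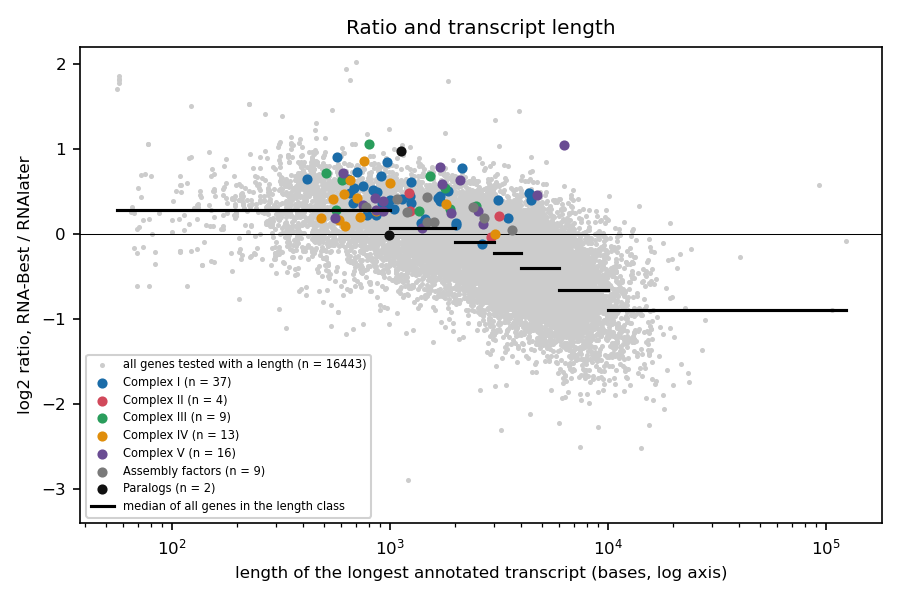
Log2 ratio of RNA-Best to RNAlater (y axis) against the length of the longest annotated transcript in bases (x axis, log scale), with all 16443 genes of known length in grey and members coloured by complex. Black bars are the medians of all genes in each length class, which fall from 0.28 up to 1 kb to -0.90 over 10 kb; the lone purple point at 6310 bases is Atp5l, whose principal transcript has 544.

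Genes of the chain are known targets of nuclear respiratory factor 1 (NRF1), of the ETS factor GABP, of YY1 and of the estrogen-related receptors (ERR). Their promoters were searched on both strands for the core letters of these motifs, of the general factor SP1, of the cAMP response element (CRE) and of the TATA box. RefSeq promoters of GRCm38.p6, 300 bases each from 250 before to 50 after the start, were available for 76 members (81 promoters). The NRF1 letters, GCGCA, any base and GCGC in a row, occurred in 20 of 81 (24.7%), against 4.60% of all 32851 promoters and 9.02% of those of protein-coding genes compared here. The ETS letters CCGGAAG occurred in 22.2%, against 8.86% and 15.8%, the YY1 letters ATGGCGGC in 9.88%, against 2.24% and 4.29%, and the ERR letters TCAAGGTCA in 2 of 81 (2.47%), against 0.423% and 0.288%. The CRE letters TGACGTCA occurred in 4.94%, against 1.79% and 2.97%. The SP1 letters GGGCGG occurred in 44.4%, above the 35.7% of all promoters and below the 60.9% of those of protein-coding genes compared, and the TATA letters TATAAA in 9.88%, below 13.6% and above 7.41%. In member promoters 1 pair of sites of different motifs shared bases. The 19 compared members with NRF1 letters had a median of 0.37 and the 55 without 0.40, and the 18 with ETS letters had 0.41 and the 56 without 0.37.

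Stretches upstream of the start are shown for 1 or 2 genes of each complex, chosen to show NRF1, ETS and ERR letters. Ndufa11, an accessory subunit of complex I, had 40.1 CPM against 31.0 CPM, a ratio of 0.37. Atp5g3 had 128.6 CPM against 105.8 CPM, a ratio of 0.28, and the values of the others are given above. They are RefSeq sequences of GRCm38.p6, written 5′ to 3′ on the strand of the gene, at most 120 bases long and ending where RefSeq or GENCODE first starts the gene. Capitals mark the NRF1 letters in Ndufa11, Sdha, Sdhd and Cox6a1, the ETS letters in Sdhd and Uqcrh, and the ERR letters in Atp5g3. The stretches are chr17:56717642-56717761 (plus strand) for Ndufa11 and, all on the minus strand, chr13:74350281-74350360 for Sdha, chr9:50603850-50603969 for Sdhd, chr4:116075072-116075190 for Uqcrh, chr5:115348982-115349078 for Cox6a1 and chr2:73911327-73911446 for Atp5g3.
Ndufa11: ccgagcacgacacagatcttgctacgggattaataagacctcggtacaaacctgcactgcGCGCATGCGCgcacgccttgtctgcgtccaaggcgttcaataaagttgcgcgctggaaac
Sdha: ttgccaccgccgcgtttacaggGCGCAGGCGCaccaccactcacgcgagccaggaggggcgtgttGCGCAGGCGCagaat
Sdhd: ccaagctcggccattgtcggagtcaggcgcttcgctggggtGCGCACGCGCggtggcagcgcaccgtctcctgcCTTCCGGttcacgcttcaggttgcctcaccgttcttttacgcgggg
Uqcrh: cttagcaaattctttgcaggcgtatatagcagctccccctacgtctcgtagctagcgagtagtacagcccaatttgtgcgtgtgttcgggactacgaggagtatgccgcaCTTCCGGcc
Cox6a1: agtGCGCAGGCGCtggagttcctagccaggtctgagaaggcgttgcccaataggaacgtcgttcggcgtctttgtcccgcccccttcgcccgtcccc
Atp5g3: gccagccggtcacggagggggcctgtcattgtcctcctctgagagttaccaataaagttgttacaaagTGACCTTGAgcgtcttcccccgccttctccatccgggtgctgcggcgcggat

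Sdha holds the NRF1 letters at 2 places in this stretch and had a ratio of -0.03, while Sdhd, with NRF1 and ETS letters, had 0.48. Uqcrh, which holds the ETS letters just upstream of its start, had the highest ratio of the members. Cox6a1 also holds them just upstream of its RefSeq start, outside the stretch shown, and had a ratio of 0.10. Sdha, Sdhd and Atp5g3 hold further NRF1 or ERR letters outside the stretches shown. A match of letters is a description of the sequence and not a measured binding site.

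The rest of the pathway was described from lists of other mitochondrial genes, whose counts are to be read against the 33.0% of all genes that were higher in RNA-Best by CPM. The 13 protein-coding genes of mitochondrial DNA, which encode the remaining subunits of complexes I, III, IV and V, had a median ratio of 0.03. By CPM 7 of them were higher in RNA-Best, and 9 or 10 with the other scalings. They ranged from -0.50 for mt-Nd6 to 0.62 for mt-Nd3 and summed to 23156 CPM in RNA-Best, against 22864 CPM in RNAlater. Their median lay 0.21 above that of all genes, against 0.57 for the nuclear-encoded genes. The annotated lengths of the mitochondrial genes are short (median 784 bases). Against genes of their own length class their median was -0.08, where that of the nuclear-encoded genes was 0.28. Of 35 further assembly factors 33 were compared, Sco2 being at 0 in both libraries. By CPM 22 were higher in RNA-Best, and 25 to 29 with the other scalings. Their median by CPM was 0.17, from -0.23 for Cox10, a gene of heme A synthesis, to 0.83 for Uqcc2, a complex III factor.

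Coenzyme Q genes had a median of 0.24, from -0.23 for Coq5 to 0.54 for Pdss1, with 7 of 9 higher by CPM and 7 or 8 with the other scalings. Cycs, the gene of cytochrome c, had 30.1 CPM in RNA-Best against 26.5 CPM in RNAlater, a ratio of 0.18 (0.08 to 0.29). The tricarboxylic acid cycle, which supplies NADH and succinate, was closer to even by CPM, with 8 of 13 genes higher. Its median was 0.07, from -0.50 for Ogdh to 0.26 for Suclg1. With each of the other scalings 10 of 13 were higher, with medians of 0.20 to 0.25. Of the regulators of mitochondrial genes, 2 of 11 by CPM, and 3 or 4 with the other scalings, were higher in RNA-Best, and the median was -0.31. Ppargc1a, the coactivator PGC-1alpha, had 2.99 and 4.12 CPM, a ratio of -0.41, Nrf1 16.2 and 19.0 CPM, a ratio of -0.23, and Gabpa 28.9 and 39.9 CPM, a ratio of -0.46. Esrra and Tfam were the regulators above 0, at 0.30 and 0.03, and Pprc1 was lowest at -0.99. The regulators have long transcripts, with a median of 4153 bases. Of all genes of 4 to 6 kb 11.4% were higher in RNA-Best, and the regulators lay 0.17 above their length classes in the median. The same difference was 0.21 for the further assembly factors, 0.28 for the coenzyme Q genes and 0.16 for the tricarboxylic acid cycle.

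**Figure D5:**
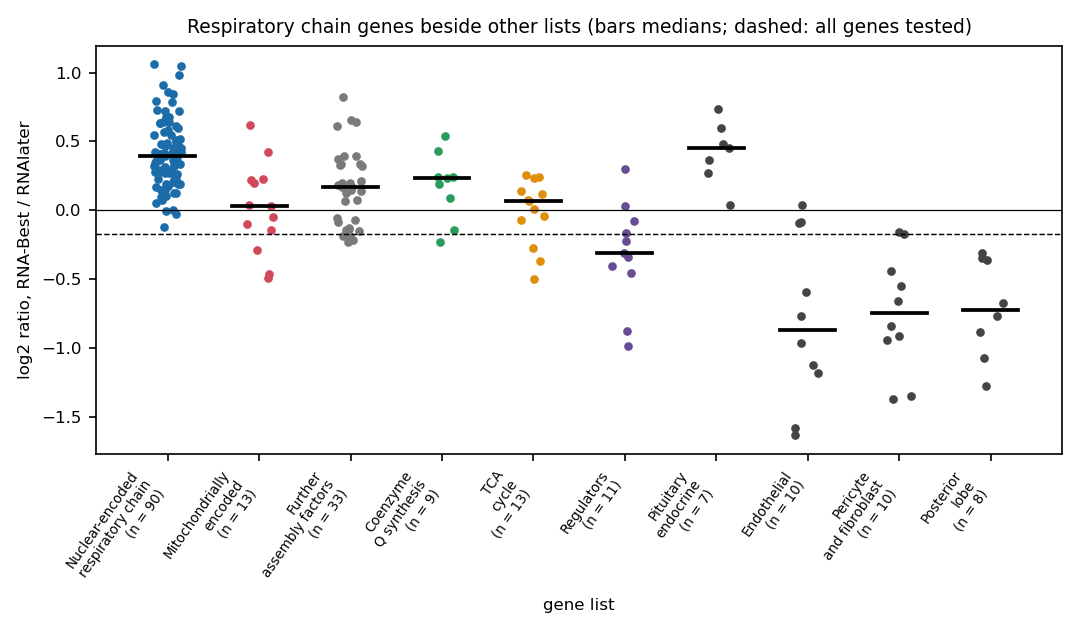
Log2 ratio of RNA-Best to RNAlater (y axis) of each gene in the nuclear-encoded respiratory chain, in other mitochondrial lists and in cell type marker lists (x axis). Points are genes, bars medians, the solid line 0 and the dashed line the median of all genes (-0.18); of the lists plotted, the hormone genes (median 0.45) and the nuclear-encoded genes (0.39) lie highest and the endothelial markers (-0.87) lowest. The erythroid, macrophage, muscle and brown adipocyte markers are not plotted.

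Markers of several cell types also differed between the libraries, and their counts are to be read against the 33.0% of all genes that were higher by CPM. The 7 endocrine hormone genes were all higher in RNA-Best, with a median ratio of 0.45, from 0.04 for Gh to 0.73 for Tshb. Of 10 endothelial markers 1 was higher in RNA-Best by CPM, and 3 with the other scalings, with a median of -0.87 and sums of 430.2 CPM in RNA-Best, against 812.6 CPM in RNAlater. Of 10 pericyte and fibroblast markers 0 were higher by CPM, and up to 2 with the other scalings, with a median of -0.75 and sums of 608.0 and 815.5 CPM. The 8 posterior lobe markers had a median of -0.72, with 0 higher and sums of 137.2 and 243.3 CPM. They too are long, with a median of 4744.5 bases, and of all genes of 4 to 6 kb 11.4% were higher by CPM. Against genes of their length class the medians were 0.30 for the hormone genes, -0.70 for endothelial, -0.40 for pericyte and fibroblast and -0.24 for posterior lobe markers.

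The 5 erythroid markers were all higher in RNA-Best, with a median of 0.79 and sums of 3200 and 1130 CPM, and 4 of 10 macrophage markers were higher, with a median of -0.21 and sums of 306.9 and 294.7 CPM. No marker of the endocrine, endothelial, pericyte and fibroblast, posterior lobe, erythroid or macrophage lists was at 0 in both libraries. The part of cell composition in the ratios of the respiratory chain genes was not tested.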

How the data were processed

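Poly(A) RNA of 2 samples was sequenced, 1 library per stabilizer, grouped by the stabilizer in the labels. The authors deposited 1 table of estimated counts per Ensembl gene, not normalized, in which fractions made up 35.4% (RNA-Best) and 34.9% (RNAlater) of values above 0. The submitters' processing notes name STAR 2.5.1b, featureCounts 1.5.0-p1 and mm10. The settings for strand and for reads with several matches are not given in the sources used here, so overlapping and antisense genes may share reads. Symbols, coordinates and transcript lengths came from GENCODE M21 on GRCm38, which matched 46488 of 47069 identifiers (98.8%).

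CPM were scaled by column total. Log2 ratios used a pseudocount of 0.5 CPM, which understates ratios of weakly expressed genes, and a filter at a mean of 1 CPM. Counting intervals were exact conditional binomial intervals (ratios) and Clopper-Pearson intervals (shares) at 95%, on counts rounded to whole numbers. They cover counting error only, as PCR copies reads. A count of 0 allows 3 counts. TMM came from edgeR 4.0.16 and size factors from DESeq2 1.42.0 in R 4.3.3. These tools supplied scaling only, since 1 library per group allows no test. Copies were found with BLAST 2.17.0 and overlaps with bedtools 2.31.1. Other steps used Python 3.11.15, numpy 2.4.6, scipy 1.17.1, pandas 2.3.3 and matplotlib 3.10.9. The ratio and interval steps were tested on simulated data.

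The members and gene lists were chosen with earlier results of these data known. Named genes were the nuclear core subunits of complex I, the Sdh genes, Cyc1, Uqcrfs1, Uqcrc1 and Uqcrc2, the F1 and subunit c genes, isoform families of complex IV, Ndufa4 and Ndufa4l2, the ends of each complex and list, the highest level per kb of each complex, genes at or beyond 2-fold, below 0 or under 1 CPM, and Cycs and 5 regulators. Any other gene was picked with its values in view. The values of 1 member are not reported here, though it is counted in the summaries. RefSeq promoters were matched by symbol, and the 18 members without one were not searched. Alternatives covered scaling, pseudocount, filter, transcript length, whole counts, background, and the grouping of Ndufa4 and the assembly factors. Adding copies and the principal transcript were chosen after seeing the data.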

Additional observations from a re-analysis of the deposited data

How the results depend on the processing

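No paired analysis was possible because each stabilizer had 1 library, and for the same reason no library could be left out. The direction of every median ratio was the same under all alternatives run. Of the recomputed values, 86 stayed within the counting or order-statistic interval of the reported value (counts within 1.5 times) and 20 did not. That interval is wide for a complex of few genes, and for the 4 genes of complex II it ran from -0.03 to 0.48. With TMM, complexes II, IV and V became 0.42, 0.52 and 0.54 and still counted as within it. The median ratio of members, 0.39, became 0.56 with TMM, 0.57 with DESeq2 size factors, 0.52 with the total without Prl and Gh, and 0.28 for genes with whole counts. With those scalings in turn, the members at least 1.5-fold higher numbered 39, 42 and 32 in place of 20 (7.31%, 7.72% and 6.39% of all genes), and the median of complex I was 0.58, 0.59 and 0.54. Complex III reached 0.73 with DESeq2 size factors. The difference from all genes, 0.57, became 0.45 with a pseudocount of 5 CPM, 0.44 with no filter, 0.61 against protein-coding genes and 0.28 against genes of the same length class. Per kb of the median transcript length, the RNA-Best level was 78.6 CPM for complex I and 137.6 CPM for complex III, and per kb of summed exons 46.3 CPM for complex V. Without Prl and Gh in the total, the members' share was 1.06% in RNA-Best and 0.727% in RNAlater. Scaling moves every gene by nearly the same amount, and the cause of the other shifts was not tested. The depth limits the isoforms under 1 CPM, and fractional counts limit genes with copies.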
